A study of Homo sapiens with 6 samples.

Results

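In SW780 cells exposed to RC48, 10 genes were followed that restrain NF-κB signalling, carry it from receptors, or act beside it at death receptors. The 10 members were taken from the 16390 genes listed in each library by their gene symbols, and all 10 symbols were found. The members were 4 feedback inhibitors (TNFAIP3, TNIP1, CYLD and ZC3H12A), 2 TNF receptor-associated factors (TRAF1 and TRAF2), 3 inhibitors of apoptosis (BIRC2, BIRC3 and XIAP) and CFLAR, an inhibitor of caspase-8. The rule reads symbols alone and no measured value, but the list of members was chosen with earlier results of these data known. Shares of members set beside shares of all genes below are therefore descriptions and not tests of the set.

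The SW780 line was derived from a human bladder cancer. RC48 couples an antibody against ERBB2 (HER2) to monomethyl auristatin E, a drug that blocks microtubules. The series holds RNA sequencing of 3 libraries of Control SW780 cells and 3 libraries of SW780 cells exposed to RC48 at 25 µg/ml, with no other agent or allele named for either group. The methods of the study call the cells stable SW780, without saying what the term covers. The exposure time and what the Control cells received were not given in the sources used here, and a result in SW780 is a result in 1 cell line.

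NF-κB is held inactive in resting cells and is released when receptors of the TNF family recruit TRAF and cIAP proteins, which build ubiquitin chains that bring in the activating kinases. NF-κB then switches on genes whose products shut the pathway down again, among them the ubiquitin-editing enzyme A20 (TNFAIP3) and the RNase Regnase-1 (ZC3H12A). It also switches on genes that restrain cell death, among them cIAP2 (BIRC3) and cFLIP (CFLAR). Epithelial cells, including those of the bladder, respond in this way to TNF and to bacterial products.

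The NF-κB binding consensus was searched on both strands in the 250 bases before each start site of the RefSeq promoter table (GRCh38.p14). The search was made because the members that moved most are textbook NF-κB targets, so the share of members with a match is no test. Members had 1 to 4 windows each, and a gene with more windows has more places for a match. A match to the 10-base consensus was found in 9.96% of the 35116 windows of all genes, and in 15.5% of the tested genes in any of their windows. Among the members, 5 of 10 had a match in at least 1 window: TNFAIP3 and BIRC3 with 2 matches in their only window, TNIP1 with 1 match in 1 of 2 windows, CYLD with 1 in 1 of 3 and CFLAR with 1 in 1 of 4. The windows of ZC3H12A, TRAF1, TRAF2, BIRC2 and XIAP held none. Sites of 30 bases are given for TNFAIP3 (chr6:137867182-137867211, plus strand), TNIP1 (chr5:151081057-151081086, minus strand), CYLD (chr16:50741887-50741916, plus strand) and CFLAR (chr2:201118609-201118638, plus strand), and for BIRC3 the 216 bases that end before the nearest annotated exon (chr11:102317234-102317449, plus strand). All are on the strand of the gene, 5′ to 3′, with the bases that match in capitals, and the TNFAIP3 stretch ends within its other match.
TNFAIP3: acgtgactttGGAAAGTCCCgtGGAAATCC
TNIP1: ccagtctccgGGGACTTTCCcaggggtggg
CYLD: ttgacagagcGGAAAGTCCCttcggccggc
CFLAR: cgcggggggcGGGGAATTCCgcagacagga
BIRC3: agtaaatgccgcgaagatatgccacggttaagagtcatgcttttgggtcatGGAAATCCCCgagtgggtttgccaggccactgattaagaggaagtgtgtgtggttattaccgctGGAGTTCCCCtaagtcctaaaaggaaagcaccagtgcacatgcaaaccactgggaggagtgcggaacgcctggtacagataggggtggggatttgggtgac
In GENCODE v29 the sites of TNFAIP3, TNIP1 and CFLAR overlap an annotated exon of the same gene, and those of CYLD and BIRC3 lie outside the annotated span of these genes. The other match of TNFAIP3, GGAAATCCCC, starts at base -55 from the start site, and the matches of BIRC3 start at bases -199 and -135. A match of letters is a description of these windows and was not tested as a binding site.

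Each library gave 16453233 to 17988030 estimated counts. The RC48 libraries were not alike: the log2 ratio of a gene to the Control mean followed the GC content of its transcripts in RC48 replicate 1 (Spearman's rho across 13000 genes 0.74) and in RC48 replicate 3 (0.57), but not in RC48 replicate 2 (-0.01). In RC48 replicate 1 the median log2 ratio was -0.99 in the lowest decile of GC content and 0.66 in the highest. Each member is therefore given also after a correction for GC content and over the fits that left out 1 library. The 8 epithelial and urothelial markers summed to 6980 to 7905 CPM in Control and 7343 to 8371 CPM in RC48, and 0 of 8 were called by edgeR or DESeq2 (2 were lower at an unadjusted p under 0.05, and limma called 2 lower). Of 12 leukocyte markers, 10 were listed, and they summed to 23.8 to 24.3 CPM in Control and 30.4 to 51.2 CPM in RC48. Most of that sum was CD68, at a mean of 16.8 CPM in Control and 24.2 CPM in RC48. PTPRC, the pan-leukocyte marker, had 0 counts in the Control group and 2 in the RC48 group, and ITGAM, the 1 leukocyte marker called by edgeR, had 5 counts in Control and 188 in RC48. Of the 7 leukocyte markers tested by edgeR, 4 were higher at an unadjusted p under 0.05, and DESeq2 called 1 and limma on log2(TPM+1) 3 leukocyte markers higher. The 7 listed markers of fibroblasts and endothelium summed to 300.3 to 338.5 CPM in Control and 401.3 to 484.9 CPM in RC48. Most of that sum was COL3A1, at a mean of 280.3 CPM in Control and 411.4 CPM in RC48. The endothelial markers PECAM1 (19.1 and 14.2 CPM) and VWF (7.96 and 5.63 CPM) had lower means in RC48, and CDH5 (1.41 and 1.66 CPM) a higher one. Of the 7 markers, 5 were tested and 0 called by edgeR. At an unadjusted p under 0.05 edgeR gave 2 higher and 1 lower, and DESeq2 called 2 and limma 1, all higher. The part of these differences in the results was not tested.

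Of the 10 members, 4 were upregulated in RC48 and 0 were downregulated (edgeR quasi-likelihood test, Benjamini-Hochberg adjusted over 13055 genes, threshold 0.05). TNFAIP3 rose 11.7-fold, BIRC3 8.06-fold, ZC3H12A 4.56-fold and TNIP1 2.21-fold in mean CPM, which are counts scaled to the TMM library size. At an unadjusted p under 0.05, edgeR gave 7 members higher and 0 lower, where 11.9% of all genes tested were higher. DESeq2 and limma on log2(TPM+1) each called 5 members higher and 0 lower, where they called 3.45% and 6.03% of all genes higher. By the edgeR adjusted p, 2.21% of all genes tested were called, 1.98% higher and 0.23% lower in RC48. The log2 fold change was above 0 in 9 of 10 members, with a median of 0.85 over the 10 and of 0.02 over all genes tested. In 7 members every RC48 library was above every Control library, against 17.4% of all genes tested. Without RC48 replicate 1, the library with the steepest GC trend, 5 members passed, the same 4 and CFLAR, where 6.82% of all genes were called. With 3 libraries a group an exact permutation test of 1 gene cannot give a p-value under 0.1, so the adjusted p-values rest on the fit across genes. No source says that the libraries came from separate cultures, so the p-values measure the spread between these libraries. In RNA of a whole culture, more cells with a transcript and more transcript per cell cannot be told apart.

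**Figure D1:**
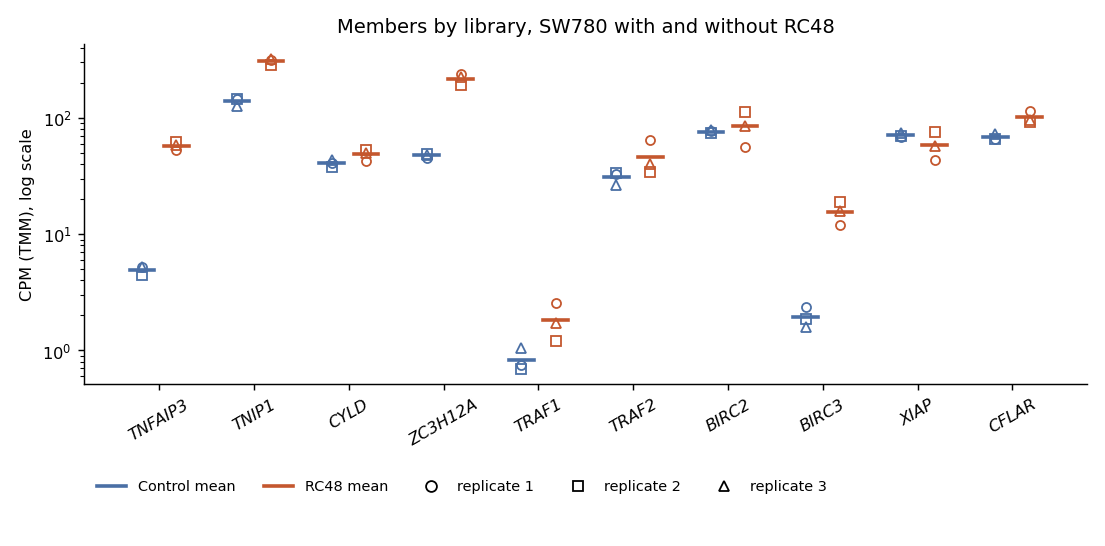
CPM (TMM, log scale) of the 10 members in each library, with open symbols for the 3 replicates and bars for the group means of Control (blue) and RC48 (orange). In TNFAIP3, BIRC3, ZC3H12A and TNIP1 the RC48 libraries lie above Control by a wide gap, in TRAF1, TRAF2 and CFLAR by a small one, and in CYLD, BIRC2 and XIAP the groups overlap.

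The largest change among the feedback inhibitors was in TNFAIP3, whose product A20 removes and adds ubiquitin on signalling proteins of the TNF receptor complex. TNFAIP3 (gene 7128, chr6:137866349-137883312, plus strand) was at 5.26, 4.46 and 5.18 CPM in Control replicates 1 to 3 and at 53.1, 62.6 and 58.1 CPM in RC48 replicates 1 to 3. The lowest RC48 library was above the highest Control library, and the RC48 libraries kept close together. The median log2 ratio of genes in the GC decile of TNFAIP3 was 0.18, 0.01 and 0.08 in RC48 replicates 1 to 3. The GC trend was thus small at its GC content. The mean changed from 4.97 ± 0.441 CPM to 57.9 ± 4.73 CPM (SD, n = 3), a log2 fold change of 3.54 (SE 0.15, edgeR adjusted p = 7.7e-05). TNFAIP3 ranked 27 among the 13055 genes by log2 fold change. Its transcripts have a GC content of 50.0%, and the log2 fold change was 3.51 after the correction for GC content and between 3.47 and 3.59 with 1 library left out. An antisense gene, AL357060.1, overlaps an exon of TNFAIP3, and the sources used here do not say whether counting used the strand.

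ZC3H12A encodes Regnase-1, an RNase that degrades the mRNAs of inflammatory cytokines. ZC3H12A (gene 80149, chr1:37474580-37484377, plus strand) was at 45.5, 49.4 and 48.2 CPM in the Control libraries and at 238.9, 190.7 and 222.8 CPM in the RC48 libraries. Control libraries were within a narrow range, and the lowest RC48 library was replicate 2, the one without a GC trend. The mean changed from 47.7 ± 2.01 to 217.4 ± 24.5 CPM (SD, n = 3), a log2 fold change of 2.19 (SE 0.13, edgeR adjusted p = 3.4e-04). ZC3H12A has a GC content of 60.1%, and after the correction its log2 fold change was 1.90. It was between 2.11 and 2.27 with 1 library left out.

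TNIP1 encodes ABIN1, a ubiquitin-binding partner of A20. TNIP1 (gene 10318, chr5:151029943-151087685, minus strand) had 144.5, 144.8 and 127.4 CPM in the Control libraries and 317.5, 285.2 and 318.5 CPM in the RC48 libraries. The groups did not overlap, and TNIP1 was already the most abundant member in Control. Its mean changed from 138.9 ± 9.99 to 307.1 ± 18.9 CPM (SD, n = 3), a log2 fold change of 1.14 (SE 0.12, edgeR adjusted p = 0.00279). After the correction for GC content, which is 58.7% in TNIP1, the log2 fold change was 0.89 (adjusted p = 0.0043 by edgeR). With 1 library left out it was between 1.08 and 1.19.

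CYLD encodes a deubiquitinase that takes apart lysine-63 and linear ubiquitin chains. CYLD (gene 1540, chr16:50742086-50801935, plus strand) was at 40.6, 37.9 and 43.8 CPM in Control and at 42.9, 52.7 and 49.9 CPM in RC48. The lowest RC48 library, replicate 1, lay below the highest Control library. The log2 fold change of 0.25 (SE 0.14) did not pass the edgeR test (adjusted p = 0.306). After the correction for GC content, which is 42.7% in CYLD, it was 0.50 and passed (edgeR adjusted p = 0.0178, range over the 16 alternative fits 0.0178 to 0.765). With 1 library left out it was between 0.19 and 0.32. Exons of AC007728.1 and AC007728.2 overlap those of CYLD on the other strand.

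The feedback inhibitors started from unlike levels. TPM is scaled for transcript length and allows levels of different genes to be compared. In Control the TPM fell in the order TNIP1 (97.2), ZC3H12A (35.8), CYLD (8.69) and TNFAIP3 (2.02). In RC48 it was 205.4 for TNIP1, 153.1 for ZC3H12A, 22.5 for TNFAIP3 and 9.91 for CYLD, so TNFAIP3 passed CYLD. No neighbours in either order overlapped in their libraries' TPM among these 4 genes. One of the RC48 libraries, replicate 2, had its TPM computed from its counts.

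The TRAF pair did not pass the test. TRAF1, an adaptor without a RING domain that binds TRAF2 and is itself an NF-κB target, is on chr9:120902393-120929171 (gene 7185, minus strand). Its estimated counts were 13, 12 and 18 in the Control libraries and 42, 21 and 31 in the RC48 libraries, or 0.75, 0.70 and 1.06 CPM against 2.55, 1.20 and 1.72 CPM. Every RC48 library was above every Control library. On these counts the log2 fold change was 1.12 with an SE of 0.35 (edgeR adjusted p = 0.174), and 0.91 after the correction for GC content (edgeR adjusted p = 0.0915). It was between 0.80, without RC48 replicate 1, and 1.34, without RC48 replicate 2.

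TRAF2 is the adaptor that brings the cIAP proteins to the TNF receptor. TRAF2 (gene 7186, chr9:136881958-136926607, plus strand) was at 32.8, 33.8 and 26.6 CPM in Control and at 64.0, 34.2 and 40.6 CPM in RC48. The RC48 libraries spread widely, and replicate 2 was barely above the highest Control library. A log2 fold change of 0.57 was found (SE 0.24, edgeR adjusted p = 0.255), which was 0.26 without RC48 replicate 1 and 0.75 without RC48 replicate 2. TRAF2 has the highest GC content of the members, 61.3%, and after the correction the log2 fold change was 0.23 (SE 0.11, edgeR adjusted p = 0.225). The log2 ratio of TRAF1 to TRAF2 within a library was -5.23 ± 0.51 in Control and -4.68 ± 0.14 in RC48 (SD, n = 3), a difference of 0.55 whose groups overlapped (exact permutation test, p = 0.3, adjusted over 3 ratios 0.3). Both TRAF genes passed in edgeR without RC48 replicate 2 (TRAF1 with an edgeR adjusted p = 0.0281 and TRAF2 with 0.0359), where the highest over the 16 alternative fits were 0.501 and 0.527. In that fit 28.3% of all genes were called.

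Among the inhibitors of apoptosis, BIRC3 was upregulated while BIRC2 and XIAP did not pass the test. BIRC3 and BIRC2 encode cIAP2 and cIAP1, ubiquitin ligases of the TNF receptor complex, and XIAP encodes the inhibitor that binds caspases directly. BIRC3 (gene 330, chr11:102317484-102339403) and BIRC2 (gene 329, chr11:102347214-102378670) are neighbours on the plus strand, 7810 bases apart with 0 genes between them.

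BIRC3 was at 2.37, 1.85 and 1.59 CPM in the Control libraries and at 12.1, 18.8 and 16.0 CPM in the RC48 libraries, with 100 estimated counts in the Control group and 815 in the RC48 group. The lowest RC48 library was far above the highest Control library. The mean changed from 1.94 ± 0.397 to 15.6 ± 3.36 CPM (SD, n = 3), a log2 fold change of 3.01 (SE 0.24, edgeR adjusted p = 9.5e-04). BIRC3 has the lowest GC content of the members, 38.5%, and its log2 ratio to Control of 2.59, 3.22 and 2.99 in RC48 replicates 1 to 3 stood against medians of -0.99, 0.02 and -0.39 for genes in the same decile of GC content. After the correction the log2 fold change was 3.40 (SE 0.17, edgeR adjusted p = 2.6e-05), and with 1 library left out it was between 2.85 and 3.17.

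BIRC2 was at 77.2, 73.7 and 78.2 CPM in Control and at 56.6, 112.4 and 85.1 CPM in RC48. Its RC48 libraries lay on both sides of Control, replicate 1 below and replicates 2 and 3 above. The log2 fold change was 0.15 (SE 0.23, edgeR adjusted p = 0.678) and ran from -0.11 without RC48 replicate 2 to 0.36 without RC48 replicate 1. The median log2 ratio of genes in the GC decile of BIRC2 was -0.71 in RC48 replicate 1, 0.01 in replicate 2 and -0.27 in replicate 3, and BIRC2 was above it by 0.28, 0.55 and 0.43. After the correction the RC48 libraries, at 77.1, 102.7 and 90.4 CPM, were all above the Control libraries, at 70.9, 68.3 and 69.8 CPM, and the log2 fold change was 0.37 (SE 0.11, edgeR adjusted p = 0.0799, range over the 16 alternative fits 0.0799 to 0.818), which did not pass.

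XIAP (gene 331, chrX:123859708-123913972, plus strand) was at 68.9, 69.9 and 74.1 CPM in Control and at 43.3, 75.6 and 57.1 CPM in RC48. Replicates 1 and 3 of RC48 were below Control and replicate 2 above it. Its log2 fold change was -0.27 (SE 0.20, edgeR adjusted p = 0.399), the only negative value among the members, and its sign turned to 0.09 after the correction for GC content (SE 0.08, edgeR adjusted p = 0.453). Without RC48 replicate 1 it was -0.10, and without RC48 replicate 2 it was -0.50 and passed (edgeR adjusted p = 0.0444, highest over the 16 alternative fits 0.667). In the fit without RC48 replicate 2, which keeps the RC48 libraries with a GC trend, 14.1% of all genes tested were called lower. The median log2 ratios of genes in the GC decile of XIAP were -0.99, 0.02 and -0.39 in RC48 replicates 1 to 3, and XIAP was above them by 0.28, 0.07 and 0.08. Estimated counts of XIAP were not whole numbers in any of the 6 libraries, so reads shared with other genes enter its value.

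**Figure D2:**
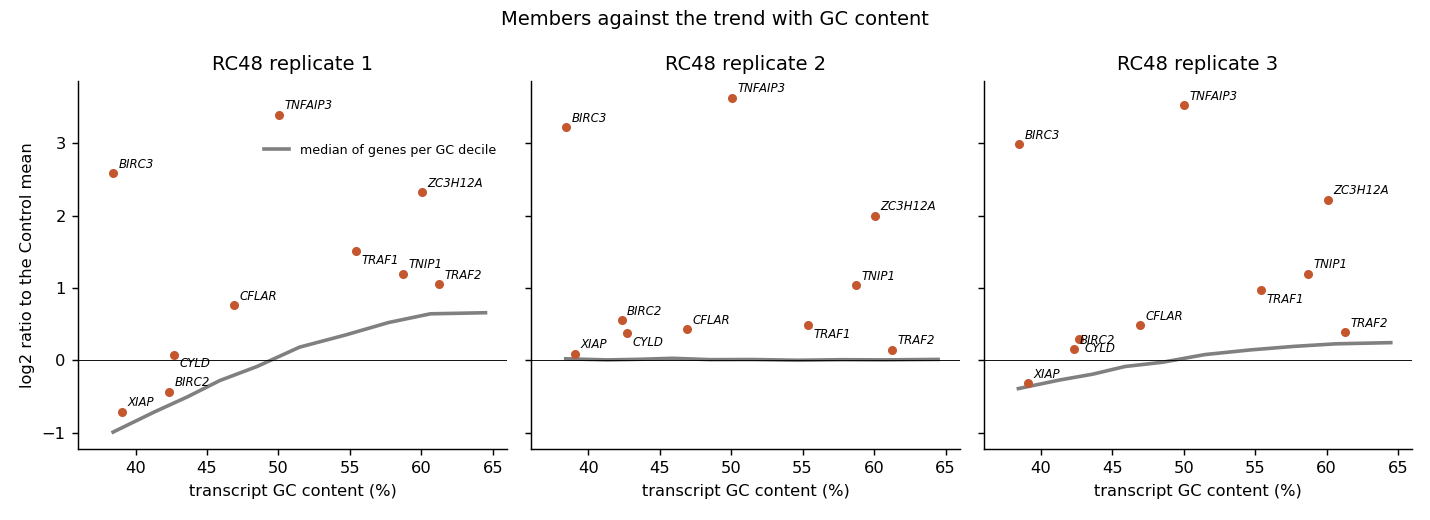
Log2 ratio of each member to its Control mean (orange points) against the GC content of its transcripts, in 1 panel per RC48 library, with the median of all genes per decile of GC content as a grey line. The line climbs from -0.99 to 0.66 in RC48 replicate 1 and is flat in replicate 2, and BIRC3 at 38.5% GC lies far above it in all 3 panels while XIAP lies within 0.28 of it.

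The unequal change of the inhibitors of apoptosis was tested within each library, where no scaling between libraries is needed. A trend with GC content need not cancel in such a ratio. The log2 ratio of BIRC3 to BIRC2 counts was -5.03, -5.31 and -5.62 in the Control libraries and -2.23, -2.58 and -2.41 in the RC48 libraries. The groups did not overlap, and the ratio was 7.53-fold higher in RC48, a difference of 2.91 on the log2 scale (exact permutation test, p = 0.1, the smallest this design allows, adjusted over 3 ratios 0.15). The log2 ratio of BIRC3 to XIAP was -5.21 ± 0.34 in Control and -1.90 ± 0.097 in RC48 (SD, n = 3), 9.97-fold higher (exact permutation test, p = 0.1, adjusted 0.15). Neither test can pass 0.05 with these libraries. After the correction for GC content, the log2 ratio of BIRC3 to BIRC2 was -5.10, -5.39 and -5.70 in the Control libraries. In the RC48 libraries it was then -1.97, -2.66 and -2.35.

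In TPM the 3 inhibitors of apoptosis together were at 63.4, 60.0 and 65.8 in the Control libraries and at 46.3, 97.2 and 70.3 in the RC48 libraries, so their sum overlapped between the groups. These TPM were not corrected for GC content. The GC deciles of the 3 genes had median log2 ratios of -0.71 and -0.99 in RC48 replicate 1. They were 0.01 and 0.02 in replicate 2, and -0.27 and -0.39 in replicate 3. The part of the GC trend in the sum was not tested. BIRC3 made up 1.03 ± 0.0819% of that sum in Control and 8.12 ± 0.782% in RC48 (SD, n = 3). Its share was between 7.42% and 8.96% in every RC48 library, while the sum ran from 46.3 to 97.2 TPM. BIRC2 stayed the most abundant of the 3 in each library, with 74.7 ± 1.47% in Control and 74.5 ± 1.54% in RC48. XIAP was 24.3 ± 1.55% of the sum in Control and 17.3 ± 0.819% in RC48. As a percentage of BIRC2, BIRC3 was 1.38 ± 0.0827% in Control and 10.9 ± 1.28% in RC48.

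**Figure D3:**
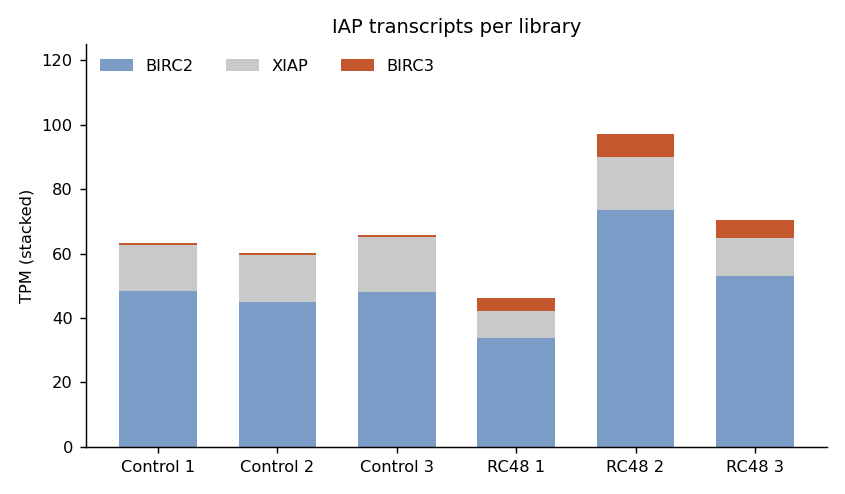
Stacked TPM of BIRC2 (blue), XIAP (grey) and BIRC3 (orange) in each library, with TPM of RC48 replicate 2 computed from its counts and no correction for GC content. BIRC3 is 1.03% of the stack on average in Control and 8.12% in RC48, and the height of the stack in RC48 runs from 46.3 to 97.2 TPM.

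CFLAR encodes cFLIP, a caspase-8-like protein without protease activity that is recruited to death receptors. CFLAR (gene 8837, chr2:201116164-201176687, plus strand) was at 65.4, 66.5 and 72.6 CPM in the Control libraries and at 115.3, 92.0 and 95.5 CPM in the RC48 libraries. Every RC48 library was above every Control library. The mean was 68.2 ± 3.91 CPM in Control and 100.9 ± 12.6 CPM in RC48 (SD, n = 3), and the log2 fold change of 0.57 (SE 0.13) did not pass (edgeR adjusted p = 0.0886). CFLAR passed in 7 of 16 alternative fits, among them DESeq2 (adjusted p = 0.0107) and the edgeR fit corrected for GC content (log2 fold change 0.65, adjusted p = 0.0272), and its adjusted p ran from 0.0107 to 0.436 over the 16 fits. With 1 library left out its log2 fold change was between 0.45 and 0.63. Its estimated counts were not whole in any library, and CFLAR-AS1, IMPDH1P10 and AC007283.1 overlap its exons.

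After the correction for GC content 6 of 10 members passed the edgeR test, the 4 above with CFLAR and CYLD, all higher, where 6.99% of all genes tested were called and 4.45% were higher. In the corrected CPM every RC48 library was above every Control library in all 10 members, against 17.0% of all genes tested. For XIAP the gap was very small, 62.90 CPM in RC48 replicate 3 against 62.86 CPM in Control replicate 3. For TRAF2 it was 38.09 CPM in RC48 replicate 2 against 36.71 CPM in Control replicate 2. Neither gene passed the corrected test. The median log2 fold change of the members was then 0.77. BIRC3 and TNFAIP3 remained the pair with the highest log2 fold changes.

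**Figure D4:**
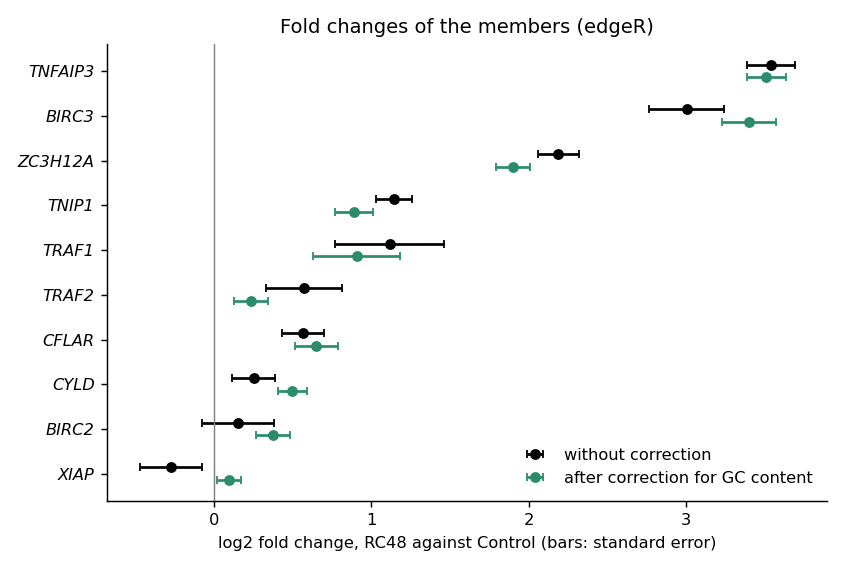
Log2 fold change of RC48 against Control for each member (edgeR, bars for 1 standard error), without a correction (black) and after the correction for GC content (green). BIRC3 moves from 3.01 to 3.40 and ZC3H12A from 2.19 to 1.90, and XIAP crosses 0 from -0.27 to 0.09.

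Over all 10 members the order of TPM in Control was TNIP1, BIRC2, ZC3H12A, CFLAR, TRAF2, XIAP, CYLD, TNFAIP3, BIRC3 and TRAF1, from 97.2 down to 0.37. CFLAR (28.2 TPM) and TRAF2 (27.9 TPM) were the only neighbours whose Control libraries overlapped. In RC48 the order was TNIP1, ZC3H12A, BIRC2, CFLAR, TRAF2, TNFAIP3, XIAP, CYLD, BIRC3 and TRAF1. BIRC2 (53.4 ± 19.9 TPM), CFLAR (40.1 ± 2.35) and TRAF2 (38.5 ± 10.1) overlapped with their neighbours, as did XIAP (12.3 ± 4.06) and CYLD (9.91 ± 1.56). BIRC3 (5.66 ± 1.53 TPM) and TRAF1 (0.75 ± 0.23 TPM) kept the lowest places.

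The rest of the pathway was read from 3 lists of other genes. Over all genes tested, 1.98% were called higher by edgeR. Their median log2 fold change was 0.02, or -0.01 after the correction for GC content. Of 25 other NF-κB inhibitors 24 were listed and 23 tested, and 3 were upregulated, with a median log2 fold change of 0.20, or 0.16 after the correction for GC content. NFKBIA, which encodes the inhibitor that holds NF-κB in the cytoplasm, was at 84.6, 87.4 and 78.3 CPM in Control and at 364.0, 282.2 and 277.3 CPM in RC48 (log2 fold change 1.88, SE 0.15, edgeR adjusted p = 7.3e-04). NFKBIE, which encodes a related inhibitor, was at 11.7 ± 0.623 and 34.5 ± 9.39 CPM (log2 fold change 1.55, edgeR adjusted p = 0.0106), and BCL3, a nuclear member of that family, at 22.1 ± 0.732 and 63.7 ± 27.0 CPM (1.53, edgeR adjusted p = 0.0373). The calls of NFKBIE and BCL3 were lost without any 1 of the Control libraries (adjusted p up to 0.112 and 0.24) and without RC48 replicate 3 (0.0576 and 0.104), whereas NFKBIA passed in all 16 alternative fits.

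Of 23 genes of the TNF receptor complex, its kinases and the other TRAFs, 22 were tested and 1 was upregulated, with a median log2 fold change of 0.31, or 0.09 after the correction for GC content. The gene called was IKBKE, the IKK-related kinase IKKε, at 14.3, 14.8 and 15.1 CPM in Control and 47.0, 32.0 and 31.5 CPM in RC48 (log2 fold change 1.32, SE 0.19, edgeR adjusted p = 0.0128). Its call was lost without any 1 of the Control libraries (adjusted p up to 0.112). After the correction for GC content TRAF3, which restrains the non-canonical NF-κB pathway, passed as well (log2 fold change 0.51, edgeR adjusted p = 0.0124).

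Of 19 other inhibitors of apoptosis, their antagonists and death-receptor effectors, 18 were tested and 1 was upregulated, with a median log2 fold change of 0.12, or 0.07 after the correction for GC content. XAF1, which encodes an antagonist of XIAP and is known as an interferon-induced gene, was at 19.8, 19.3 and 17.0 CPM in Control and at 32.7, 66.3 and 48.0 CPM in RC48. The groups did not overlap, and the log2 fold change was 1.39 (SE 0.25, edgeR adjusted p = 0.0349). The call of XAF1 was lost when any 1 Control library, or RC48 replicate 3, was left out (edgeR adjusted p up to 0.24), and with library sizes alone (0.0616).

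**Figure D5:**
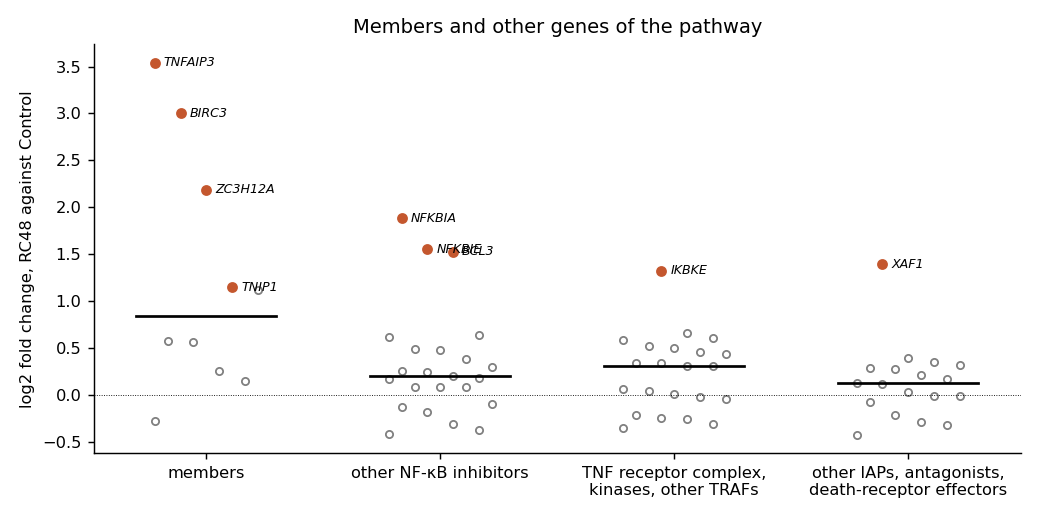
Log2 fold change of RC48 against Control for the members and for 3 lists of other genes of the pathway (points, filled where the edgeR adjusted p was under 0.05), with a bar at each list's median. The members have 4 filled points and a median of 0.85, and the other lists have 3, 1 and 1 filled points with medians of 0.20, 0.31 and 0.12 (0.16, 0.09 and 0.07 after the correction for GC content, which is not plotted). Over all genes tested 2.21% were called, with a median of 0.02.

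TNFAIP3 was the called member with the largest log2 fold change, and the 5 genes with the nearest profile were found by the Euclidean distance between log2(CPM + 1) values centred on Control over the 6 libraries. These were IL32 (distance 0.488), LTB (0.667), C3 (0.77), BIVM-ERCC5 (0.965) and C15orf48 (1.05). Their log2 fold changes by edgeR were 5.52, 10.64, 4.33, 10.22 and 4.37 in that order, against 3.54 for TNFAIP3. Adding 1 to the CPM damps the change of genes near 0 in Control, so a near profile here is not an equal fold change. IL32, a cytokine gene, was at 0.29 ± 0.114 CPM in Control and 13.6 ± 0.638 CPM in RC48 (SD, n = 3). LTB, which encodes lymphotoxin beta, had 0 counts in all Control libraries and 11.5 ± 1.36 CPM in RC48. C3, the gene of complement component C3, was at 1.28 ± 0.205 CPM in Control and 25.9 ± 6.37 CPM in RC48. BIVM-ERCC5 is a readthrough gene that shares reads with ERCC5, so its value is uncertain.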

How the data were processed

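RNA-seq of 6 SW780 libraries was used, 3 Control and 3 RC48. Reads were filtered (SOAPnuke) and aligned (Bowtie2) by the authors, who deposited estimated counts per gene from RSEM, not normalized. The authors also deposited TPM values for 5 libraries, scaled for length and library size. Per the labels the build is hg38, and tool versions, annotation and strand are not given in the sources used here. Of the genes of a library, 11.7% to 15.0% have counts that are not whole.

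Counts were rounded, filtered with filterByExpr, normalized by TMM and tested with edgeR 4.0.16 (quasi-likelihood, Benjamini-Hochberg, threshold 0.05, R 4.3.3) over all genes. The test was chosen over limma on log2(TPM+1), named in the study's methods, because it fits counts and covers all 6 libraries. TPM of RC48 replicate 2 was computed from counts and implied gene lengths (median absolute log2 difference 0.0321 over 12037 genes when applied to RC48 replicate 3). The correction for GC content subtracted the loess trend (span 0.3) of each library's log2 CPM on transcript GC content (GENCODE v29), known for 99.4% of genes, as an edgeR offset. Ratios were tested by two-sided exact permutation over libraries. Gene positions are from RefSeq (GRCh38.p14), matched by gene number for all 10 members. The edgeR fit was also run on simulated counts with a common dispersion for all genes and no GC trend. That run does not cover the GC trend or the uneven spread of these libraries. Replicate libraries differed by more than sampling noise. The chi-square per degree of freedom was 1.50 to 12.2 between Control libraries and 23.1 to 140.0 between RC48 libraries.

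The members and gene lists were chosen with earlier results of these data known. Named are all members, up to 6 called genes of each list with the largest log2 fold changes, and the 5 genes with profiles nearest to the called member that changed most. The 16 alternative fits were DESeq2 1.42.0, limma 3.58.1 on log2(TPM+1) and log2(TPM+0.1) over 5 libraries, edgeR with library sizes alone or with RLE factors, without a filter or with a minimum of 10 counts per library, a replicate block, the correction for GC content alone and with the block, and each library left out in turn. The library that the limma fits lack is RC48 replicate 2.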

Additional observations from a re-analysis of the deposited data

How the results depend on the processing

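TNFAIP3, BIRC3, ZC3H12A and TNIP1 were called higher in RC48 in all 16 alternative fits (highest adjusted p 0.0050, 0.0228, 0.0129 and 0.0383). The 10 members gave 4 to 8 calls with 1 library left out, the 8 without RC48 replicate 2, where 7 were higher and 1 (XIAP) lower. The log2 fold change of BIRC2 turned negative with limma on log2(TPM+1) and log2(TPM+0.1) (-0.15 and -0.16) and without RC48 replicate 2 (-0.11, range with 1 library left out -0.11 to 0.36), and that of XIAP turned positive, to 0.0942, after the GC correction and to 0.0938 when the block joined that correction. Both limma fits also lack RC48 replicate 2, so they are not independent of the fit that leaves it out. Over all genes the median log2 fold change was -0.12 with limma on log2(TPM+0.1) and 0.02 in edgeR. The cause was not tested. Over all genes the 288 calls became 676 with DESeq2, 2779 and 2570 with limma on log2(TPM+1) and log2(TPM+0.1), 913 after correcting for GC content, 659 when the replicate block was added to that correction, and 68 to 3726 with 1 library left out. Without RC48 replicate 2, the 3 lists named next had 8, 8 and 3 calls higher and 2, 2 and 2 lower. In that fit 14.1% of all genes tested were called higher and 14.1% lower. The calls over all genes were 71, 78 and 68 without Control replicates 1, 2 and 3, and 897, 3726 and 93 without RC48 replicates 1, 2 and 3. The 288 calls were 258 higher and 30 lower, against 488 and 188 with DESeq2, 777 and 2002 or 714 and 1856 with limma, and 581 and 332 after the GC correction. As shares of all genes tested, limma called 6.03% and 5.54% higher and 15.5% and 14.4% lower at the pseudocounts 1 and 0.1. DESeq2 called 3.45% higher and 1.33% lower, and the fit after the GC correction 4.45% and 2.54%. The other NF-κB inhibitors gave 8 calls (5 higher, 3 lower) and 7 calls (5 higher, 2 lower) with limma at the pseudocounts 1 and 0.1, 7 after the GC correction (6 higher, 1 lower), and 1 to 10 with 1 library left out. The TNF receptor complex, kinases and other TRAFs gave 3 calls with DESeq2 (all higher), 7 (5 higher, 2 lower) and 6 (5 higher, 1 lower) with limma, 2 after the GC correction and 2 with it and the block (all higher), and 0 to 10 with 1 library left out. The other inhibitors of apoptosis and effectors gave 4 and 4 calls with limma (each 1 higher, 3 lower), 0 with library sizes alone, 3 after the GC correction (2 higher, 1 lower), and 0 to 5 with 1 library left out. The 3 ratios kept their direction in every alternative run. With the replicate number as a block 331 genes were called, and 4 members. Deviations of same-numbered libraries had correlations of 0.0020, -0.132 and 0.0048, and those of differently numbered libraries ran from -0.112 to 0.131. The sources used here do not say whether same-numbered libraries were paired. With 3 libraries a group these correlations cannot settle it. Depth limits TRAF1 most, with 12 to 42 counts a library. Of the single genes' alternative values 284 of 317 kept both direction and call.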
